A study of Mus musculus with 2 samples.

Results

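Atf3, Atf4, Batf, Batf3, Maff, Mafk and Ddit3 encode basic leucine zipper (bZIP) transcription factors. Ddit3 encodes CHOP, of the C/EBP family, and the others belong to the ATF, BATF and small MAF families. The genes were found by symbol, and no threshold on a measured value was used, although earlier results of these data were known when the genes were picked. The 7 symbols matched 8 of the 55536 gene records in the tables, because Ddit3 has a second record. The RNA came from the nucleoplasmic fraction of bone marrow-derived macrophages of C57BL/6J mice, which are primary cells and not a cell line, and was sequenced after ribosomal RNA depletion. Both libraries, replicates 1 and 2, belong to 1 group: the cells had 12 h of Lipid A, the portion of lipopolysaccharide recognised by Toll-like receptor 4, at 100 ng/ml, then 12 h without it, then a second exposure at the same dose for 30 min. No untreated or singly treated cells were analysed here, so the values describe a state and not a response.

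bZIP factors bind DNA as dimers, and the choice of partner sets the sequence bound. ATF4 is the main effector of the integrated stress response: phosphorylation of eIF2α lowers translation in general but favours that of the Atf4 mRNA, so its RNA level is a poor guide to its protein. ATF3 and CHOP are encoded by known ATF4 targets, and ATF3 is known in mouse macrophages as a brake on genes induced through Toll-like receptors. BATF and BATF3 lack a transactivation domain and act with JUN proteins and IRF4 or IRF8, and BATF3 is best known for the development of type 1 conventional dendritic cells. MAFF and MAFK are small MAF proteins, also without a transactivation domain, that act with NRF2 or BACH1 at antioxidant genes.

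Replicate 1 held 23846021 gene counts and replicate 2 held 20675305, of which the 7 genes took 10666 and 8466. RNA input was 1 µg for replicate 1 and 500 ng for replicate 2, and mitochondrial mRNA made up 2.81% and 6.85% of gene counts, so replicate, input and this share cannot be told apart. The labels give both libraries the same donor identifier and do not say whether they came from separate mice or cultures, so the spread between them may be technical in part. All 10 macrophage markers reached at least 10 TPM (a level per effective length, scaled to a fixed total per library) in each library, led by Lyz2, Ctss and Adgre1, and the lowest, Itgam, had 38.0 and 48.5 TPM. Of 8 T cell markers, Cd28 and Cd4 reached 10 TPM in both libraries and Cd3e, Cd3g and Cd8a were listed at 0. No B cell marker reached 1 TPM, and of 7 neutrophil markers Csf3r alone passed 10 TPM, with Ly6g, Elane and Cxcr2 listed at 0. These values come from the tables derived from alignments. In those made from the reads without alignments, no T cell marker reached 10 TPM in both libraries. There the T cell marker Cd3d had 1.21 and 3.99 TPM, against 0.02 and 0.03 TPM in the tables from alignments. Cd8a had 0.22 and 0.63 TPM without alignments and Cxcr2 0.59 and 1.67 TPM, while Ly6g and Elane stayed at 0. For the median of 9207 protein-coding genes, TPM was lower in replicate 1 by a log2 ratio of -0.26, so the TPM of any 1 gene is read against that shift. Over counts scaled by the trimmed mean of M-values (TMM), the median protein-coding gene stood at -0.03.

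The promoters of Atf3, one of the pair of highest genes, and of Maff, whose RNA the tables assign to several first exons, are shown because the letters upstream of the annotated starts differ. They are 250 bases long, end at the base before the RefSeq start and come from RefSeq on GRCm38.p6, the assembly that mm10 names. The third Maff promoter is cut to the 155 bases that follow an annotated exon of another Maff transcript. Capitals mark motif matches. In Atf3 they are a C/EBP-ATF element (TGATGNAA on either strand), bound by ATF4 dimers with C/EBP factors or CHOP, and a core element (TGACGT on either strand), the core letters of the cAMP response element bound by ATF and CREB dimers. In the second Maff promoter they are a full cAMP response element (TGACGTCA), and in the third a match, on the opposite strand, to the kappaB consensus of NF-kB.
Atf3 promoter, chr1:191183334-191183583, minus strand: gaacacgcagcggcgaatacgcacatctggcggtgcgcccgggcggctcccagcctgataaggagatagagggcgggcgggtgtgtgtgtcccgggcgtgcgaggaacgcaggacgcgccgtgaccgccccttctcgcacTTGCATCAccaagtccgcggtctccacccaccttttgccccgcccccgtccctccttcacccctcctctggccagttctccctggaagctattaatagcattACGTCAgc
Maff promoter 1, chr15:79346371-79346620, plus strand: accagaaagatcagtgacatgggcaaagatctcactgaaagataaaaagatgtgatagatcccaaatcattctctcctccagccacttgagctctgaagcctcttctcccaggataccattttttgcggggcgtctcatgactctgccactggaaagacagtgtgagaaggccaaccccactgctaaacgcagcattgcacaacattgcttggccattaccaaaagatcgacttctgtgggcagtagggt
Maff promoter 2, chr15:79347270-79347519, plus strand: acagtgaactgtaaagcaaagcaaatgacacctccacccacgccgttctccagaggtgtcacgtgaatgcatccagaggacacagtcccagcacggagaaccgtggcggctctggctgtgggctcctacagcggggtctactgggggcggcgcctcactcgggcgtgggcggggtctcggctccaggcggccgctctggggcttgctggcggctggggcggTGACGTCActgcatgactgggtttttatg
Maff promoter 3, chr15:79348247-79348401, plus strand: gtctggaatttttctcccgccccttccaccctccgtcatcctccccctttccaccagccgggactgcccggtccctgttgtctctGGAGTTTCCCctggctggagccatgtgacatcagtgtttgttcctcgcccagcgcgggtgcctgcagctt

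The C/EBP-ATF element of Atf3 began 110 bases before the RefSeq start, and the core element 8 bases before it. The GENCODE start of Atf3-201 lies 7 bases upstream of the RefSeq start, inside that core element. The full element of Maff promoter 2 began 29 bases before the start and the kappaB match of promoter 3 began 70 bases before it, while promoter 1 held none of the motifs searched. Of the other members, the Ddit3 promoter held an AP-1 element (TGANTCA), 242 bases before the RefSeq start, and the Batf promoter a core element, 98 bases before it. Batf-201 starts 51 bases upstream of the RefSeq start in GENCODE, so the core element lies nearer to that start. The promoters of Mafk, Batf3 and Atf4 held no match in this window. In Batf3, however, 163 of the 250 bases lie in annotated exons. Batf3-201 starts within that window, so its lack of a match covers few bases upstream of the annotated starts. Over all 32841 RefSeq promoters of the same length, 1.55% held the full cAMP response element, 6.47% the core element, which the full one contains, and 3.45% the C/EBP-ATF element. AP-1 elements stood in 6.75% and kappaB matches in 7.25%. The extended AP-1 element of small MAF dimers, in 0.353%, and a TATA box (TATAAA), in 12.4%, were in none of the 9 promoters of these genes. A match is a string of letters and no evidence of binding.

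Junctions of Ddit3, Batf and Atf4 are shown because each gene has a transcript annotated as a retained intron, whose share of the RNA is given below. Each pair has the same 15 bases at the end of exon 2 in lower case, followed in capitals by 15 bases of the next exon in the coding transcript, or of the intron in the retained-intron transcript. They were read from the GENCODE M21 transcripts. Exon 2 ends at 127293759 on chromosome 10 in Ddit3, at 85689372 on chromosome 12 in Batf and at 80256521 on chromosome 15 in Atf4, all on the plus strand of mm10.
Ddit3-201, spliced: cacacctgaaagcagAACCTGGTCCACGTG
Ddit3-202, retained: cacacctgaaagcagGTAATCTTGGCCACC
Batf-201, spliced: gacacccttcacctgGAGAGTGAGGACCTG
Batf-202, retained: gacacccttcacctgGTGAGTACCCACACT
Atf4-201, spliced: cagacaccggcaaggAGGATGCCTTTTCCG
Atf4-203, retained: cagacaccggcaaggGTGAGTAGGACGGCT

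Atf4, Atf3 and Ddit3, the genes of the stress-response axis, were the highest of the 7, the small MAF genes and Batf lay in the middle, and Batf3 was barely detected. Of the 7 genes, 4 reached 10 TPM in both libraries, against 15.5% of 22015 protein-coding genes of the nuclear genome, and 6 reached 1 TPM in both, against 41.8%. Atf4 (ENSMUSG00000042406.8, chr15:80255184-80257541, plus strand) had 58.9 TPM in replicate 1 and 73.5 TPM in replicate 2, a mean of 66.2 ± 10.3 TPM (SD, n = 2). It stood at percentile 96.4 and 96.7 of the 14594 such genes listed above 0.

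Atf3 (ENSMUSG00000026628.13, chr1:191170296-191218039, minus strand) had 60.8 and 59.4 TPM in replicates 1 and 2, a mean of 60.1 ± 0.990 TPM (SD, n = 2). It stood at percentiles 96.6 and 95.8. Ddit3 (ENSMUSG00000025408.15, chr10:127290774-127296288, plus strand) had 50.9 and 54.4 TPM, a mean of 52.6 ± 2.50 TPM (SD, n = 2). Its range did not overlap that of Atf3, while the ranges of Atf3 and Atf4 did.

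The second Ddit3 record (ENSMUSG00000116429.1) is a coding record of 105 bases that lies within the first. It held 0 counts in replicate 1 and 0.96 in replicate 2, with a TPM listed at 0 and an effective length of 0 in both. The read-based tables, made from the reads without the alignments, gave it 0 and 19.3 counts, with 21.8 TPM in replicate 2. It shares its sequence with the main record, so reads between them cannot be told apart and it is not counted as a gene below.

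Batf (ENSMUSG00000034266.6, chr12:85686669-85709087, plus strand) had 21.4 and 16.3 TPM in replicates 1 and 2, a mean of 18.9 ± 3.66 TPM (SD, n = 2). Batf3 (ENSMUSG00000026630.9, chr1:191097847-191108945, plus strand) had 1.54 and 0.80 TPM, a mean of 1.17 ± 0.523 TPM (SD, n = 2). These values rest on 35 and 13 counts, against 450 and 280 for Batf. The ranges of the 2 genes did not overlap, with Batf3 at percentiles 41.0 and 31.5 of genes listed above 0 and Batf at 88.3 and 81.3.

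Maff (ENSMUSG00000042622.14, chr15:79346621-79359076, plus strand) had 8.08 and 14.4 TPM in replicates 1 and 2, a mean of 11.2 ± 4.45 TPM (SD, n = 2). Mafk (ENSMUSG00000018143.10, chr5:139791513-139802653, plus strand) had 6.85 and 6.23 TPM, a mean of 6.54 ± 0.438 TPM (SD, n = 2). Maff had the largest SD relative to its mean among the 6 genes that averaged at least 100 counts. It stood at percentiles 71.6 and 79.2 and Mafk at 68.2 and 61.8. The small MAF ranges did not overlap each other, nor did that of Maff overlap Batf above it, and both were above Batf3.

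**Figure D1:**
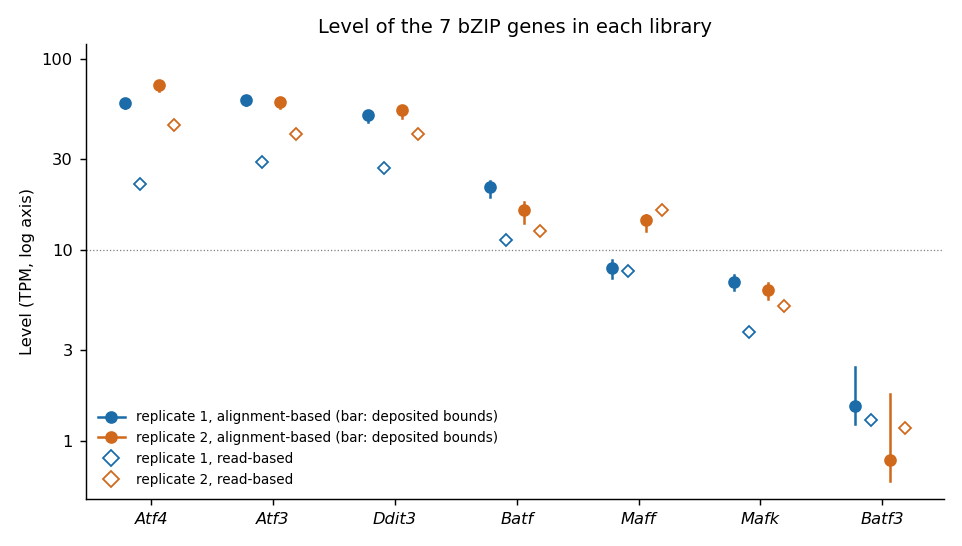
Level in TPM (log axis) of the 7 genes in each library, in the alignment-based table (filled circles, bars from the lower to the upper deposited credibility bound) and the read-based table (open diamonds), with replicate 1 in blue left of replicate 2 in orange and a dotted line at 10 TPM. Atf4, Atf3 and Ddit3 stand together near the top, at 50.9 to 73.5 TPM in the alignment-based table, and Batf3 lies at 0.80 to 1.54 TPM.

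The read-based table kept these 3 genes on top but did not separate them. It gave Atf3 29.0 and 40.5 TPM, Ddit3 26.9 and 40.5 TPM and Atf4 22.2 and 45.0 TPM in replicates 1 and 2, with overlapping ranges. The Ddit3 values leave out the second record, whose 21.8 TPM in replicate 2 would, if added, put Ddit3 above Atf3 and Atf4 in that library. That value rests on 19.3 counts over a record of 105 bases, against 1791 counts for the main record. It is therefore no sign that Ddit3 was the highest gene. Maff, at 7.77 and 16.3 TPM, overlapped Batf, at 11.3 and 12.6 TPM. Mafk had 3.73 and 5.10 TPM and Batf3 1.29 and 1.17 TPM, so the order at the low end was that of the alignment-based table. Over protein-coding genes the alignment-based TPM was higher than the read-based TPM by a median log2 ratio of 0.84 in replicate 1 and 0.35 in replicate 2, so levels are compared only within a table.

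None of the 6 genes that averaged at least 100 counts differed beyond 2-fold between the libraries, against 3.49% of 9673 genes (1.82% higher and 1.67% lower in replicate 1). This used expected counts scaled by TMM. Ratios are log2, replicate 1 over replicate 2, with exact 95% intervals for counting error only. Batf was higher in replicate 1 at 0.49 (0.27 to 0.71), Mafk at 0.38 (0.20 to 0.55) and Atf3 at 0.31 (0.24 to 0.38). Ddit3 was at 0.14 (0.02 to 0.25) and Atf4 at -0.03 (-0.10 to 0.04), an interval that holds 0. Maff was lower in replicate 1, at -0.52 (-0.70 to -0.34), the only 1 of the 6 whose interval lay wholly below 0. Batf3 stood at 1.20 (0.28 to 2.27), past 2-fold but on too few counts to be included.

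On the TPM scale the same ratios were -0.83 for Maff, -0.32 for Atf4, -0.10 for Ddit3, 0.03 for Atf3, 0.14 for Mafk and 0.40 for Batf. Read against the median of -0.26 for all genes, Maff and Atf4 lay below it and the other 4 above it. The negative TPM ratio of Ddit3 thus lay above that shift, and its ratio was positive in scaled counts. The deposited credibility bounds of TPM did not overlap between the libraries for Atf4, Batf and Maff, which is 3 of the 6 members at 1 TPM or more in both, against 43.6% of 9207 genes at that level. Within Batf, the bounds of the coding transcript Batf-201 overlapped (10.6 to 13.1 TPM in replicate 1 and 9.97 to 12.9 TPM in replicate 2). Those of the retained-intron transcript Batf-202 did not (7.45 to 10.8 TPM and 3.09 to 5.81 TPM). For Atf4 in replicate 2 the deposited TPM of 73.54 lay just above its own upper bound of 73.47.

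**Figure D2:**
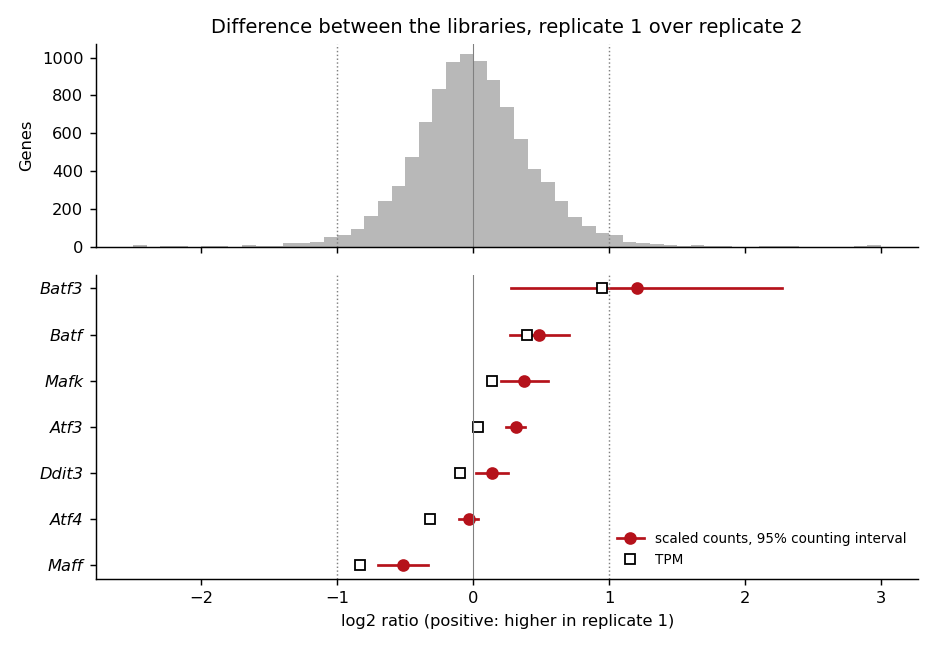
Top, number of genes (mean count of at least 100) by log2 ratio of scaled counts, replicate 1 over replicate 2, with ratios beyond the axis placed in the end bars. Bottom, the ratio of each of the 7 genes (red circles with 95% counting intervals) and its TPM ratio (open squares), where Maff lies lowest at -0.52 and Batf3, on 35 and 13 counts, lies highest at 1.20.

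The 7 genes were then placed among 48 bZIP genes of the ATF and CREB, FOS and JUN, MAF and CNC, and C/EBP families. By mean TPM in the alignment-based table, Atf4 was 5th, Atf3 7th and Ddit3 9th, behind Junb, Nfe2l2, Maf and Nfe2l1, with Jun and Fos between them. Batf was 17th, Maff 25th, Mafk 30th and Batf3 39th. These ranks, and the distances that follow, hold for that table only. In the read-based table Creb5 was above Atf4, Atf3 and the main Ddit3 record in each library. Nearest in level over both libraries, by distance on log2(TPM + 0.1) among 41 genes, Jun came first for Atf3, with 60.4 and 59.9 TPM, and also for Atf4 and Ddit3. The second for these was Nfe2l1 for Atf3 and Atf4, at 67.0 and 91.9 TPM, and Creb5 for Ddit3, at 42.0 and 45.8 TPM. For Batf they were Cebpg and Crebzf, for Batf3 Cebpd and Creb3l2, for Maff Atf2 and Atf5, and for Mafk Atf1 and Cebpa. Likeness over 2 libraries describes level and nothing more.

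**Figure D3:**
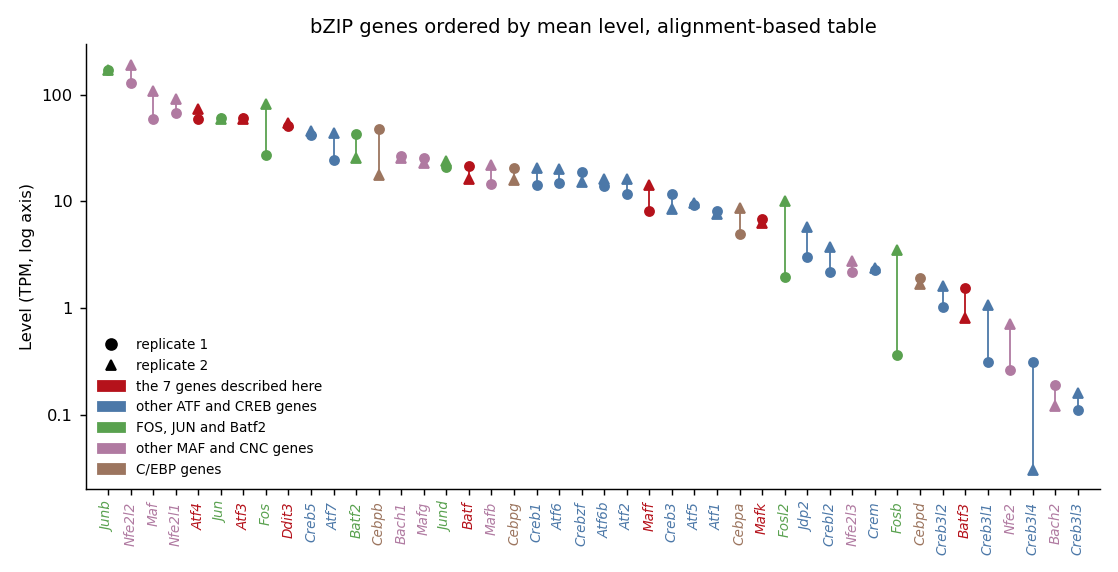
Level in TPM (log axis, alignment-based table) of bZIP genes with a mean of at least 0.1 TPM, ordered by mean. Replicate 1 is shown as circles and replicate 2 as triangles, joined by a line, with colours for the families. The 7 genes (red) span the range, from Atf4 at rank 5 of 48 to Batf3 at rank 39.

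Among partners of BATF, the JUN genes and Irf8 were above Irf4, and also above Batf3. They are part of a list of 10 genes that also holds the FOS genes and Batf2. Of that list 6 reached 10 TPM in both libraries, a share of 60.0%, which is not a share of BATF partners. Junb had 173 and 170 TPM, Jun 60.4 and 59.9 TPM and Fos 27.5 and 82.3 TPM in replicates 1 and 2, while the lowest, Fosl1, had 0.10 and 0 TPM. Irf8, an interferon regulatory factor that pairs with BATF and JUN, had 31.5 and 25.3 TPM, and Irf4, the other such partner, 0.15 and 0.30 TPM. Batf2, the remaining BATF paralogue, had 43.2 and 25.5 TPM and so was above Batf in each library. These 3 genes were named after their values were seen.

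Beyond 2-fold between the libraries stood 4 of the 8 genes of this list that averaged at least 100 counts, against 3.49% of all 9673 such genes. These 4 were also named after their values were seen. Fos was lower in replicate 1 at -1.36 (-1.45 to -1.28), Fosl2 at -2.13 and Fosb at -3.04, all immediate-early genes of the AP-1 complex. Batf2 was higher in replicate 1 at 1.03 (0.89 to 1.17). Jun, at 0.29 (0.24 to 0.34), and Junb, at 0.30 (0.25 to 0.34), had ratios close to that of Atf3. What separates the libraries at the FOS genes was not tested.

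Of the 3 small MAF genes, Mafg was above Maff and Mafk, at 25.3 and 23.2 TPM in replicates 1 and 2. In its list of 12 other MAF and CNC genes, 7 reached 10 TPM in both libraries, led by Nfe2l2, Maf and Nfe2l1. Nfe2l2, which encodes NRF2, had 130 and 190 TPM, and Bach1, the repressor that competes for small MAF partners, 26.7 and 25.5 TPM. The lowest, Nrl, a MAF gene of photoreceptors, was listed at 0 in both. Mafg and Bach1 were named after their values were seen.

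Genes regulated by NRF2 with small MAF proteins were mostly lower in replicate 1. Of the small MAF genes, Maff was lower there too, at the ratio of -0.52 given above, while Mafk, at 0.38, and Mafg, at 0.21 (0.14 to 0.29), were higher. Nfe2l2 was lower, at -0.29 (-0.33 to -0.25), and Bach1 higher, at 0.30 (0.25 to 0.36). Any link between these ratios and those of the regulated genes was not tested. Of the 16 regulated genes listed, 9 reached 10 TPM in both libraries. The ferritin genes Fth1 and Ftl1 led, with 1887 and 2043 TPM and 955 and 1103 TPM in replicates 1 and 2, followed by Prdx1, a peroxiredoxin, with 59.2 and 134 TPM. Nqo1, a quinone reductase often used as a marker of NRF2 activity, was the lowest, with 0.06 and 0.19 TPM on 3 and 7 counts. Of the 14 with at least 100 counts on average, 12 were lower in replicate 1, with a median log2 ratio of -0.57 in scaled counts against -0.03 over all protein-coding genes, of which 4025 of 8635 were higher in replicate 1. Beyond 2-fold in that direction were 2, Slc7a11 and Srxn1, against 1.67% of 9673 genes. Both were named after their values were seen.

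Of the genes around ATF4, the eIF2α phosphatase subunit gene Ppp1r15a (GADD34) stood out in level, at 152 and 238 TPM in replicates 1 and 2. It was followed by Eif2ak2, the kinase PKR, at 73.4 and 73.0 TPM, and Ppp1r15b, the constitutive phosphatase subunit, at 24.1 and 30.9 TPM. The list holds 13 genes for eIF2α, its kinases and their inhibitor, phosphatase subunits and eIF2B, and the other 10 were below 10 TPM in at least 1 library, with Eif2b1 the lowest at 1.52 and 2.30 TPM. None of the 11 with enough counts differed beyond 2-fold.

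Known targets of ATF4 and CHOP were spread over the whole range of levels. Of 30 such genes, 10 reached 10 TPM in both libraries (33.3%) and 7 were below 1 TPM in both, with a median of 4.65 TPM in replicate 1 and 4.80 TPM in replicate 2. Slc3a2, a subunit of amino acid transporters, had 118 and 148 TPM, Gdf15, a stress-induced cytokine, 117 and 62.1 TPM, and Nupr1, a stress-induced chromatin protein, 36.3 and 50.0 TPM. Fgf21 and Bcat1 were listed at 0. Beyond 2-fold were 3 of 20, against 3.49% of 9673 genes. They were Gdf15 at 1.20 and Bbc3 at 1.02 (0.68 to 1.37), higher in replicate 1, and Slc7a11 at -1.57. The interval of Bbc3 includes ratios within 2-fold. Bbc3 and Slc7a11 were named after their values were seen. Slc7a11, the cystine transporter, is also in the list of NRF2 targets.

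Genes of the other branches of the unfolded protein response had a median of 17.8 TPM in replicate 1 and 26.0 TPM in replicate 2. Of 14 such genes, 11 reached 10 TPM in both libraries. The chaperone genes Calr, Hspa5 and Hsp90b1 led, with 125 and 294 TPM, 157 and 163 TPM, and 94.5 and 168 TPM in replicates 1 and 2. Creld2 was the lowest, at 4.11 and 5.59 TPM. Beyond 2-fold were 2 of the 14, against 3.49% of 9673 genes. They were Manf, at -1.05 (-1.25 to -0.85), and Dnajb9, at -1.21 (-1.43 to -0.99), both lower in replicate 1 and named after their values were seen. Both intervals include ratios within 2-fold.

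Of other ATF and CREB genes, 7 of 17 reached 10 TPM in both libraries, and none of the 13 with enough counts differed beyond 2-fold. Creb5 had 42.0 and 45.8 TPM, Atf7 24.6 and 44.1 TPM and Creb1 14.4 and 20.6 TPM. In the alignment-based table all of them were thus below Atf4, Atf3 and Ddit3 in each library. In the read-based table Creb5, at 32.8 and 46.7 TPM, was above Atf4, Atf3 and the main Ddit3 record in each library. There, 2 of the 17 genes reached 10 TPM in both libraries. The lowest was Creb3l3, at 0.11 and 0.16 TPM. Among the C/EBP genes, the other partners of ATF4 and CHOP, Cebpb had 47.9 and 17.9 TPM, Cebpg 20.4 and 15.9 TPM, Cebpa 4.93 and 8.63 TPM and Cebpe 0.03 and 0.11 TPM. Cebpb was higher in replicate 1 at 1.69 (1.57 to 1.82), the only 1 of 4 beyond 2-fold, against 3.49% of 9673 genes.

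Of 4 genes that ATF3 restrains in mouse macrophages, the cytokine gene Tnf was at 569 and 754 TPM, above Atf3 in each library. The others were low, with Il6 at 2.22 and 5.97 TPM, Il12b at 0.96 and 2.61 TPM and Ch25h, a cholesterol hydroxylase gene, at 1.05 and 0.09 TPM on 47 and 3 counts. Whether any of them depends on ATF3 here was not measured. Markers of the type 1 dendritic cells that need BATF3 were also low. Of 8 markers, Wdfy4, at 35.6 and 27.3 TPM, was the only one to reach 10 TPM in both libraries. Cadm1 had 6.31 and 9.56 TPM and Ccr7 0.83 and 1.45 TPM, and the other 5 were below 1 TPM in both, with Flt3 the lowest at 0.05 and 0.13 TPM. Xcr1 and Clec9a, named here as the defining surface receptors after their values were seen, had 0.10 and 0.12 TPM and 0.30 and 0.21 TPM. In bulk RNA, few cells with much Batf3 and many cells with little cannot be told apart.

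Nuclear RNA holds unfinished transcripts, and 4 of the 7 genes have a transcript that GENCODE annotates as a retained intron. Ddit3-202 ends inside intron 2, holding 823 of its 1561 bases, and lacks the exons that code for CHOP. It held 38.7% of Ddit3 TPM in replicate 1 and 50.0% in replicate 2, at percentiles 67.9 and 86.6 of 2456 genes at 10 TPM or more with such a transcript. The medians of those genes were 27.9% and 22.5%. The read-based table gave Ddit3 40.6% and 49.2%, close to the alignment-based values.

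Batf-202 is a single exon that runs from exon 2 into 451 of the 19170 bases of intron 2. It held 43.4% of Batf TPM in replicate 1 and 27.6% in replicate 2 (45.0% and 25.0% in the read-based table). Atf4-203 keeps both introns, of 521 and 112 bases, and held 20.9% and 14.8% of Atf4 TPM. Both were larger in replicate 1, while that of Ddit3 was larger in replicate 2. Batf stood at percentiles 75.7 and 58.8 of the 2456 genes and Atf4 at 36.0 and 34.7. Of the 3 members among those genes, Ddit3 and Batf had 20% or more of TPM in retained-intron transcripts in both libraries, against 53.2% of the 2456. For Batf3, which is below 10 TPM, with 20.1% and 42.5%, the shares rest on 6.95 and 5.58 counts. Atf3, Maff and Mafk have no such transcript in the annotation.

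With protein-coding transcripts alone, the levels of Atf4, Ddit3 and Batf were lower. Atf4 had 46.6 and 62.6 TPM, Ddit3 31.2 and 27.2 TPM and Batf 12.1 and 11.8 TPM in replicates 1 and 2, while Atf3, at 60.8 and 59.4 TPM, was as before. On that scale the mean of Atf3, 60.1 TPM, was above that of Atf4, 54.6 TPM, and that of Ddit3 was 29.2 TPM. The ranges of Atf3 and Atf4 overlapped with and without the other transcripts. On both scales Atf3 was the higher in replicate 1 and Atf4 in replicate 2, so their order is not resolved on either. The retained-intron transcripts of these 3 genes share exon bases with the coding ones, so reads in those bases were divided by estimation.

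**Figure D4:**
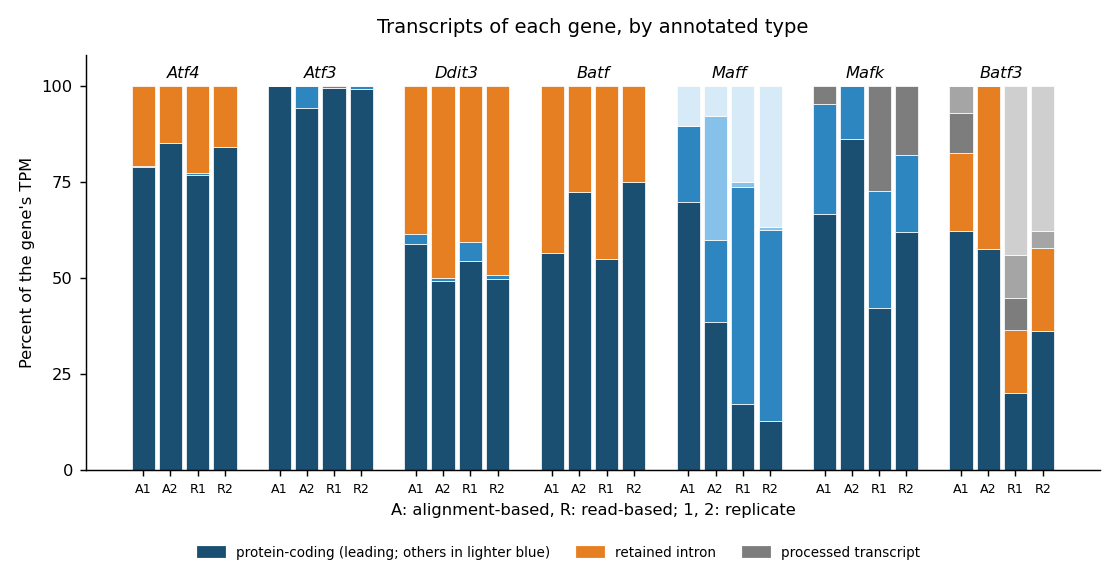
Share of each gene's TPM (percent) by transcript, for the alignment-based table (A) and the read-based table (R) in replicates 1 and 2, with protein-coding transcripts in blues, retained-intron transcripts in orange and processed transcripts in greys. The orange share of Ddit3 is larger in replicate 2 (38.7% and 50.0% in the alignment-based table), that of Batf larger in replicate 1 (43.4% and 27.6%), and the blues of Maff change places between the tables.

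In the alignment-based table, 6 of the 7 genes had the same leading transcript in replicates 1 and 2, and 4 had it in both libraries and both tables. Of the 4 members that reached 10 TPM it was 3 and 3, against 82.2% and 58.3% of 3277 genes at that level with more than 1 transcript. The 4 that held throughout were Atf3-201, Atf4-201, Batf-201 and Mafk-201. Atf3-201 held 100% and 94.1% of Atf3 TPM and Atf4-201 held 78.8% and 85.2% of Atf4 TPM in replicates 1 and 2. Batf-201 held 56.6% and 72.4% and Mafk-201 66.7% and 86.2%. Thus Atf3 was nearly a single transcript, and the other 3 were mixtures in which 1 transcript led throughout.

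The exception between the libraries was Ddit3. Ddit3-201, with 30.0 TPM in replicate 1 and 26.7 TPM in replicate 2, led Ddit3-202, with 19.7 and 27.2 TPM, in replicate 1 only. In replicate 2 the bounds of both transcripts overlapped (23.3 to 28.0 TPM for Ddit3-201 and 24.1 to 28.4 TPM for Ddit3-202), so their order there is not resolved. Batf3-201 led in the alignment-based table with 62.3% and 57.5%, and Batf3-203, a processed transcript, in the read-based table with 44.0% and 37.8%.

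Maff has 4 coding transcripts that differ in their first exon, and the promoters shown above belong to 3 of them. No promoter is shown for Maff-202. The start of Maff-203 matches promoter 1, that of Maff-201 promoter 2 with the cAMP response element, and that of Maff-204 promoter 3 with the kappaB match. In the alignment-based table Maff-201 had 5.63 TPM in replicate 1 and 5.56 TPM in replicate 2, Maff-204 1.61 and 3.05 TPM and Maff-202 0.84 and 1.14 TPM. Maff-203 was listed at 0 in replicate 1 and at 4.63 TPM in replicate 2, but its bounds ran to 1.37 TPM in replicate 1 and from 0.456 to 6.75 TPM in replicate 2, so they overlap. The read-based table instead put Maff-204 first, with 4.38 and 8.07 TPM, then Maff-202 with 1.95 and 5.97 TPM, Maff-201 with 1.33 and 2.09 TPM and Maff-203 with 0.10 and 0.15 TPM. Which Maff start carried most RNA thus differed between the tables, although the gene as a whole was lower in replicate 1 in both.

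**Figure D5:**
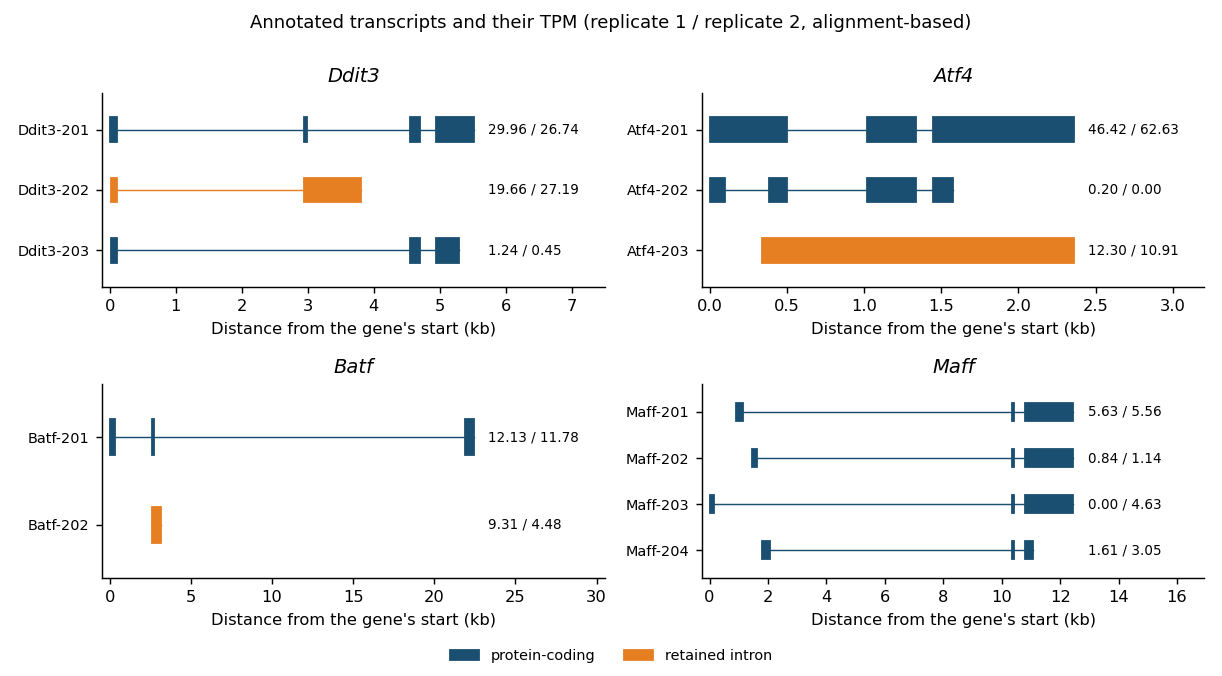
Annotated transcripts of Ddit3, Atf4, Batf and Maff by distance from the gene's start (kb), exons as boxes and introns as lines, protein-coding in blue and retained intron in orange, with TPM in replicate 1 and replicate 2 at the right. Ddit3-202 (19.66 and 27.19 TPM) ends inside intron 2, and the 4 Maff transcripts differ in their first exon.

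Genes on the opposite strand touch 3 of the members, and no label or header states how strand was handled, so reads in the shared bases cannot be told apart. Ddit3 shares 68 bases at its end with Mars, which had 647 and 404 counts in replicates 1 and 2, and 15 bases at its start with Gm4189, which had 6 and 1. Mafk shares 169 bases with Tmem184a, which had 15 and 7 counts. Atf3 spans Gm24748, a small RNA gene with 0 counts. Against the 1348 and 1070 counts of Ddit3 and the 686 and 461 of Mafk, only Mars was of comparable size.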

How the data were processed

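Each of the 2 libraries came with a gene table and a transcript table derived from transcriptome alignments, and with a transcript table derived directly from reads, all on mm10 with GENCODE M21 per the file headers. For the aligner, quantification tools, versions, strand and trimming, nothing is given in the sources used here. Expected counts in the deposited gene tables share ambiguous reads among genes and were rounded here. The deposited TPM values are per effective length with a fixed total per library, and the FPKM values by the authors are per length and number of fragments. The deposited percent of each gene's TPM per transcript was recomputed from TPM. The alignment-based tables hold 26345 other rows (tRNA, spike-in and phage), which were kept out of library sizes.

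Members were found by symbol. The members, gene lists and motifs were chosen with earlier results of these data, or the promoter letters, known. Named from each list are the 3 genes highest in mean TPM and the lowest, apart from those said to be named after their values were seen. With 1 group no test was made and no p-value is given. Ratios of the libraries used TMM factors of edgeR 4.0.16 (0.997 and 1.00, R 4.3.3), a prior count of 0.5 and exact Clopper-Pearson intervals at 95%, tested on simulated data. Tried instead were size factors from DESeq2 1.42.0, scaling by library size, other thresholds, FPKM and the read-based table. A limit of 3 counts, the most that a count of 0 allows, equals 0.126 CPM in replicate 1 and 0.145 in replicate 2. Intervals and limits cover only the error of counting, because without molecular identifiers reads may repeat a molecule. The chi-square between the libraries was 108.5 per gene over 15041 genes, so they are not 1 library listed again.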

Additional observations from a re-analysis of the deposited data

How the results depend on the processing

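No paired analysis was possible because both libraries belong to 1 group. Levels in mean TPM moved by more than the SD in several settings, and for those below the cause was not tested unless the unit itself sets it. The read-based table gave 34.7 for Atf3, 33.6 for Atf4, 33.7 for Ddit3, 11.9 for Batf and 4.42 for Mafk. Protein-coding transcripts alone, an alternative chosen after seeing the data, gave 54.6 for Atf4, 29.2 for Ddit3 and 12.0 for Batf. The posterior mean gave 58.5 for Atf3. Other units set other scales: FPKM gave 96.7 for Atf4, 88.8 for Atf3, 77.4 for Ddit3, 28.2 for Batf, 16.1 for Maff, 9.69 for Mafk and 1.78 for Batf3, and TPM over nuclear protein-coding genes alone gave 329 for Atf4, 302 for Atf3, 263 for Ddit3, 95.7 for Batf, 55.0 for Maff, 33.0 for Mafk and 6.03 for Batf3. At 10 TPM or more in both libraries were 4 members, 6 at 1 TPM, 3 at 30 TPM, 4 in the read-based table, and 5 without replicate 1 and 4 without replicate 2.

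The ratio, replicate 1 over replicate 2, left its counting interval for 2 genes in the read-based table, Atf3 at 0.43 and Maff at -0.30. It did so for 5 genes in TPM, with Atf3 at 0.034, Atf4 at -0.32, Maff at -0.83, Mafk at 0.14 and Ddit3 at -0.10. No member with at least 100 counts on average passed 2-fold under DESeq2 size factors, library size or the read-based table, and none passed 1.5-fold. Of all genes, 338 passed 2-fold, against 703 in the read-based table, 1570 at 1.5-fold, 1317 at a mean count of at least 10 and 6349 with no filter on counts. The share of the leading transcript was 28.1% for Batf3-201, 15% for Maff-201 and 52.0% for Mafk-201 in the read-based table. With 2 libraries, leaving out 1 cannot move a mean beyond its SD, and no ratio exists without either. Of the gene lists, 9 of 14 medians and 3 of 14 counts at 10 TPM or more moved in the read-based table. The 13 and 35 counts of Batf3 limit every statement on it.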
